A study of Mus musculus with 2 samples.

Results

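Lysosomes are the acidic compartments in which cells break down proteins, sugars and lipids, and in macrophages they also digest the material taken up by phagocytosis. The genes described here are 38 genes of this organelle, chosen by name: 11 proteases, 8 glycosidases (enzymes that cut sugar chains), 8 genes of lipid handling, 7 membrane proteins and 4 genes of the V-ATPase, the proton pump that acidifies the lysosome. They are 38 of the 55536 genes measured, and each symbol matched a single gene of the GENCODE M21 annotation. RNA came from bone-marrow-derived macrophages of C57BL/6J mice, and from their nucleoplasm, which is the soluble content of the nucleus. Cells had been given lipid A, the part of bacterial lipopolysaccharide that the receptor TLR4 senses, at 100 ng/ml for 20 min. After removal of ribosomal RNA, 2 libraries were sequenced, and both belong to this 1 group. They are labelled as biological replicates with the same donor identifier, so the spread between them may be technical. The amounts of RNA used were 1 µg for replicate 1 and 500 ng for replicate 2, and the effect of that amount cannot be told apart from the replicate. No untreated cells and no other cell fraction were analysed here, so the values are levels in stimulated cells and no effect of lipid A was measured.

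Most soluble lysosomal enzymes are made as precursors, carried to the lysosome by receptors for a mannose 6-phosphate tag, and matured by other lysosomal proteases at low pH. Transcription factors of the MiT/TFE family, of which TFEB is the best known, bind a short palindromic word in the promoters of many lysosomal genes and switch them on together. Loss of some of these enzymes or transporters, such as GAA, GLA or NPC1, causes a lysosomal storage disease, in which undegraded material builds up.

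The gene tables held 18194818 counts in replicate 1 and 18667509 in replicate 2, and mitochondrial genes took 3.19% and 10.5% of them. How much other RNA from outside the nucleus the libraries held was not measured. A count of 0 would allow up to 3 counts in either library. Listed macrophage markers were present, with 12 of 12 at 1 TPM or more in both libraries (TPM is a level corrected for transcript length and scaled to a fixed total in each library) and a summed level of 1738 and 1544 TPM. Listed neutrophil and stromal markers had 0 of 9 and 0 of 6 genes at that level, with summed levels of 3.59 and 5.12 TPM for neutrophils, where Ly6g had 0 counts, and of 0.12 and 0.11 TPM for stroma. The lists for dendritic, erythroid, B and T or NK cells had 1 of 6, 1 of 6, 0 of 6 and 1 of 7 genes at that level. Summed levels were 3.58 and 3.25 TPM for dendritic cells, 3.63 and 4.05 for erythroid cells, 0.43 and 0.63 for B cells, and 33.8 and 32.5 for T or NK cells. Nearly all of the last was Cd4, at 33.7 and 32.5 TPM, while Cd3e and Cd3g had 0 counts. Among 8 osteoclast markers only Itgb3 and Nfatc1 reached 1 TPM in both libraries, and Calcr, a defining one, had 0 and 1 counts. Because RNA was taken from the bulk population, fewer cells of a type and less RNA per cell cannot be told apart in any level given here.

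Many of the 38 lysosomal genes were among the most abundant coding RNAs of this fraction. The genes were chosen with earlier results of these data known, so the shares that follow describe this list only. Other genes of the lysosomal system, given below, had lower medians. The median over the 38 genes was 176 ± 26.2 TPM (SD, n = 2), with 195 TPM in replicate 1 and 158 in replicate 2. By contrast the median nuclear protein-coding gene at 1 TPM or more stood at 11.2 and 8.53 TPM. Of the 38 genes, 37 stood at 1 TPM or more in each library, against 44.9% of 22015 nuclear protein-coding genes. The higher minimum of 100 TPM in both was reached by 27 of 38, against 1.33% of those genes, and 5 exceeded 1000 TPM. Together the 38 genes held 7.55% of the TPM of nuclear protein-coding genes in replicate 1 and 8.46% in replicate 2. In counts they took 4.97% (95% exact Clopper-Pearson interval 4.96% to 4.98%) and 4.86% (4.85% to 4.87%) of each library, intervals that cover counting error only. By TPM of the first quantification they filled the first 5 ranks of nuclear protein-coding genes in both libraries, with Psap, Gpnmb, Ctsb, Lyz2 and Ctsd. Of the first 100 ranks they held 13 and 16. Ranks were not taken in the second quantification. Levels ranged over 2007-fold between the highest and lowest of these genes in replicate 1 and over 3825-fold in replicate 2.

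**Figure D1:**
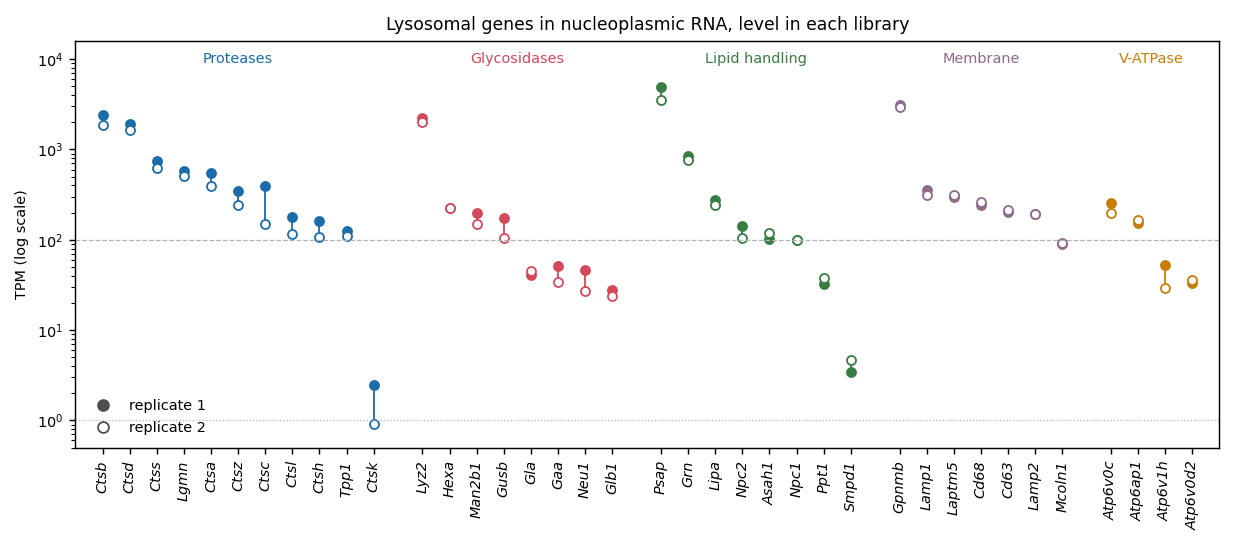
Level of each of the 38 lysosomal genes in TPM on a log axis, with filled circles for replicate 1, open circles for replicate 2 and a line joining them. Genes are grouped by class and ordered by mean. The dashed line marks 100 TPM and the dotted line 1 TPM. Psap lies highest, at 4938 and 3519 TPM, and Ctsk lowest, at 2.46 and 0.92 TPM.

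Proteases had a class median of 321 ± 111 TPM (SD, n = 2), the highest class in replicate 1 at 399 TPM and below the membrane proteins in replicate 2 at 243, and 10 of 11 stood above 100 TPM in both libraries. Ctsb, a cysteine protease and the highest of them, was at 2408 TPM in replicate 1 and 1876 in replicate 2. Ctsd, the main aspartic protease of the lysosome, was at 1929 and 1661 TPM. Ctss, a cysteine protease that trims the invariant chain of MHC class II, was at 743 and 625 TPM. For these 3 genes replicate 1 was the higher library in TPM, and replicate 2 on scaled counts, with log2 ratios of 0.30, 0.13 and 0.11. Next came Lgmn, the asparaginyl endopeptidase that matures several cathepsins, at 578 and 504 TPM. Ctsa, a carboxypeptidase that also protects the sialidase and the beta-galactosidase described below, was at 544 and 398 TPM. Ctsz, another carboxypeptidase, was at 346 and 243 TPM. Ctsc, which activates granule serine proteases by removing dipeptides, was at 399 and 151 TPM, farther apart in ratio than any protease above. Ctsl, Ctsh and the tripeptidyl peptidase gene Tpp1 lay between 107 and 179 TPM in either library. Ctsk, the collagen-degrading protease best known from osteoclasts, stood apart from its class at 2.46 and 0.92 TPM, or 61 and 28 counts. Acp5, an acid phosphatase also known from osteoclasts, was likewise low, at 31 and 6 counts.

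Glycosidases had a median of 93.9 ± 26.6 TPM (SD, n = 2), and the class held 1 gene far above the others. Lyz2, the lysozyme of macrophages, was at 2219 and 1999 TPM. Hexa, the alpha subunit of beta-hexosaminidase, was at 227 and 225 TPM, from 7701 and 9392 counts. Man2b1, the lysosomal alpha-mannosidase, was at 197 and 148 TPM. Gusb, the beta-glucuronidase, was at 174 and 105 TPM. Lowest were Gla (alpha-galactosidase A), Gaa (acid alpha-glucosidase, which degrades glycogen), Neu1 (the sialidase) and Glb1 (beta-galactosidase). Glb1 was at 27.9 and 23.8 TPM, and the ranges of Gla, Gaa and Neu1 over the libraries overlapped each other, from 27.0 to 51.4 TPM.

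Lyz2 has a close copy, Lyz1, the lysozyme of Paneth cells in the gut, and reads can be divided between such copies. Their coding sequences have the same length, 444 bases, and differ at 22 of them, which leaves 95.045% identity. The first 60 coding bases are shown because a read from this stretch can be told apart at only 2 positions, in capitals.
Lyz1: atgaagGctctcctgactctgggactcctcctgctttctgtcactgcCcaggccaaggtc
Lyz2: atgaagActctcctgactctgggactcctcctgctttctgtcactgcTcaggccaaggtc
The deposited estimates put 46732 and 51787 counts on Lyz2 and 14.01 and 22.02 counts on Lyz1.

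Among lipid handling genes the median was 117 ± 7.12 TPM (SD, n = 2), and levels ran from 3.44 to 4938 TPM. Psap encodes the precursor of the 4 saposins, small proteins that present lipids to the lysosomal hydrolases. By the first quantification it was the highest nuclear protein-coding gene in both libraries, at 4938 and 3519 TPM. Of its 5 annotated coding transcripts, Psap-202 took 55.5% and 51.6% of the gene's TPM and Psap-203 took 41.6% and 46.0%. Grn, which encodes progranulin, was at 839 and 767 TPM. Lipa, the acid lipase that frees cholesterol from its esters, was at 274 and 241 TPM. The cholesterol transporters Npc2 and Npc1, which hand cholesterol on from the lumen to the membrane, were at 143 and 106 TPM and at 99.9 and 99.5 TPM. Asah1, the acid ceramidase, was at 102 and 119 TPM. Ppt1, which removes palmitate from proteins, was at 32.1 and 37.3 TPM. Smpd1, the acid sphingomyelinase, was lowest at 3.44 and 4.66 TPM, from 144 and 239 counts. Thus Smpd1, for making ceramide from sphingomyelin, and Asah1, for degrading ceramide, differed in RNA level by more than their spread over the libraries. Enzyme levels were not measured.

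The 7 membrane proteins had a median of 250 ± 13.0 TPM (SD, n = 2), and 6 of them exceeded 100 TPM in both libraries. Gpnmb, a transmembrane glycoprotein of lysosomes and melanosomes, was at 3113 and 2941 TPM. Lamp1, a main glycoprotein of the lysosomal membrane, was at 354 and 312 TPM. Laptm5, a lysosomal membrane protein of blood cells, was at 294 and 316 TPM. The scavenger receptor-like macrophage marker Cd68 was at 241 and 259 TPM and the tetraspanin gene Cd63 at 203 and 214 TPM. Lamp2 was at 192 and 194 TPM. Mcoln1, which encodes the calcium channel TRPML1, was lowest at 89.2 and 91.0 TPM. The other 6 thus lay between 89.2 and 354 TPM, all below Gpnmb. Their TPM values lay close together in the libraries, while on scaled counts, given below, most were higher in replicate 2.

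Lamp2 makes 3 coding forms that share 1109 coding bases and then use different last coding exons, so that the lumenal part is common and the membrane anchor and cytosolic tail differ. The own coding ends are shown because they are what separates the forms in sequence. The last 15 coding bases, in capitals, encode the tyrosine-based signal that sends the protein to lysosomes.
Lamp2-201: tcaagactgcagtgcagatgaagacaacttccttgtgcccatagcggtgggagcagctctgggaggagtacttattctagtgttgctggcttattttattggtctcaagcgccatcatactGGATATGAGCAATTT
Lamp2-202: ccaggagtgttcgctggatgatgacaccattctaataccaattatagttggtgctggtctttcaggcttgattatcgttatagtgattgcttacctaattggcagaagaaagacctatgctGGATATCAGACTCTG
Lamp2-203: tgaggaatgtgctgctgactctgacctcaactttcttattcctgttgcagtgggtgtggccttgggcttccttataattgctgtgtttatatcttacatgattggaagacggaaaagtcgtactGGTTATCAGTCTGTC
These correspond to the forms known as LAMP-2A, LAMP-2B and LAMP-2C, of which LAMP-2A is the receptor of chaperone-mediated autophagy. Their last coding exons lie on the minus strand of mm10 at chrX:38405435-38405571 for Lamp2-201, chrX:38421715-38421851 for Lamp2-202 and chrX:38402142-38402281 for Lamp2-203. Of the TPM on the 3 forms, Lamp2-202 took 59.2% in replicate 1 and 57.3% in replicate 2. Lamp2-201 took 38.1% and 41.2%, and Lamp2-203 took 2.76% and 1.49%. The second quantification gave the same order, with 53.5% and 52.8% for Lamp2-202, 42.4% and 44.2% for Lamp2-201, and 4.12% and 2.97% for Lamp2-203. In both libraries and both quantifications the 3 forms did not overlap. The exon of Lamp2-202 lies upstream of the last exons of the other forms, inside an intron of both.

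The 4 V-ATPase genes had a median of 102 ± 2.10 TPM (SD, n = 2). Atp6v0c, which encodes the proteolipid of the rotating membrane ring, was at 253 and 197 TPM. Atp6ap1, an accessory subunit, was at 154 and 165 TPM. Atp6v1h, a regulatory subunit of the cytosolic part, was at 52.3 and 29.0 TPM, and Atp6v0d2, a stalk isoform known from osteoclasts and macrophages, was at 33.3 and 35.7 TPM. The broadly expressed partner isoform Atp6v0d1 was at 37.2 and 27.1 TPM, so the order of the isoforms differed between the libraries. A processed copy of the proteolipid gene, Atp6v0c-ps2, took 13.6 and 1.17 counts against 7479 and 6025 for Atp6v0c.

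Other genes of the lysosomal system had lower medians. The levels that follow are those of the first quantification, and the order within a list could differ in the second. Of 21 further V-ATPase genes, 15 had 1 TPM or more in each library, with a median of 23.8 ± 4.94 TPM (SD, n = 2). Their highest genes were Tcirg1, the a3 subunit of the membrane part, at 718 and 319 TPM, Atp6v0b at 335 and 159, and Atp6v0a1 at 265 and 177. Tissue-restricted Atp6v0a4 and Atp6v1g3 had 0 counts in both. Of 40 further hydrolases and their cofactors, 36 reached 1 TPM and the median was 21.2 ± 1.21 TPM. Among them, the phospholipase D family genes Pld3 and Pld4 were at 284 and 204 TPM and at 174 and 109 TPM. Ctsg, a granule protease of neutrophils, was lowest at 0.07 and 0.23 TPM. Of 27 measured further membrane proteins, 25 reached 1 TPM, with a median of 34.4 ± 0.940 TPM. The peptide transporter gene Slc15a3 led them at 196 and 136 TPM, ahead of the channel gene Tpcn2 at 154 and 71.2 and the metal transporter gene Slc11a1 at 133 and 80.2, and Lamp5 had 0 counts. Because the 38 genes were named with earlier results in view, the gap between these medians and theirs is a description.

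Machinery that serves the lysosome was present at moderate levels. All 12 genes of sorting to the lysosome reached 1 TPM, with a median of 24.8 ± 4.26 TPM (SD, n = 2). By the first quantification M6pr, a mannose 6-phosphate receptor, was highest at 57.8 and 52.1 TPM, followed by the adaptor gene Ap1b1 at 55.2 and 33.8 and the other receptor gene Igf2r at 36.2 and 30.9, and Gnptg was lowest at 8.44 and 6.24. The second turned the order of the upper 3, with Ap1b1 at 38.6 and 51.7 TPM, Igf2r at 35.6 and 47.6, and M6pr at 19.6 and 34.0. Of 17 genes of the mTORC1 machinery on the lysosomal surface, 16 reached 1 TPM and the median was 24.2 ± 4.84 TPM. Fnip2 was highest at 266 and 214 TPM, then its partner Flcn at 83.8 and 44.9 and Fnip1 at 59.9 and 49.7, and Rragb was lowest at 0.56 and 0.43. Of 8 protease inhibitors, 4 reached 1 TPM, led by Cst3, a secreted inhibitor of cysteine cathepsins, at 72.6 and 69.9 TPM, Serpinb6a at 72.5 and 66.1, and Cstb at 37.9 and 27.5, and Stfa3 had 0 counts.

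**Figure D2:**
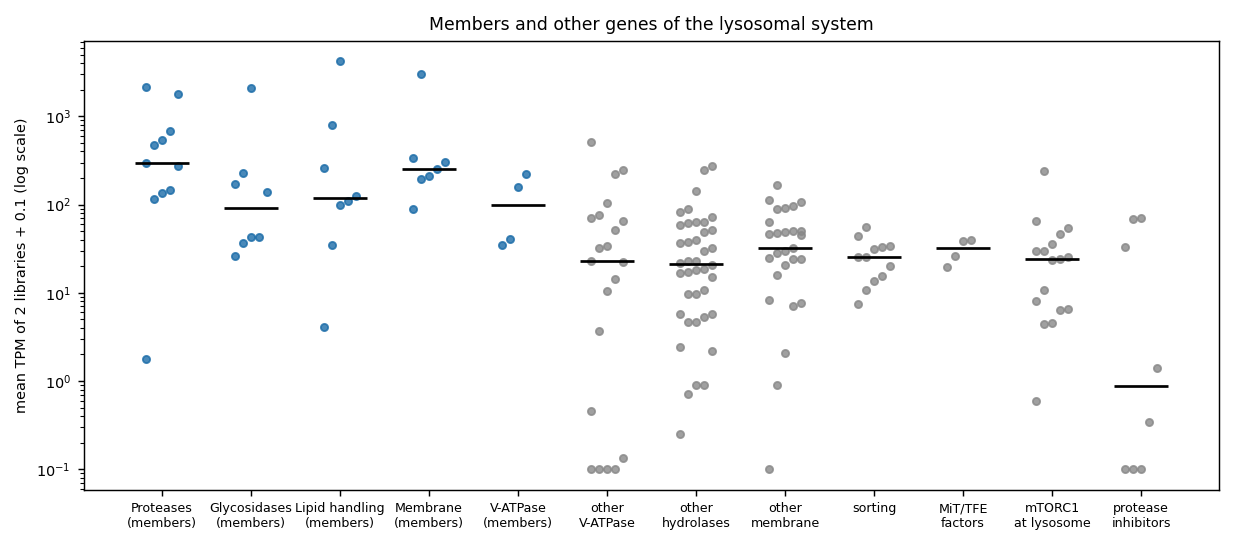
Mean TPM of the 2 libraries plus 0.1, on a log axis, for the 5 classes of the 38 lysosomal genes (blue) and for 7 further lists (grey), 1 point per gene. Black bars mark list medians of the mean levels. The MiT/TFE factors lie between 19.5 and 39.7 TPM, and the further V-ATPase genes reach from 0 counts to Tcirg1.

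The 4 MiT/TFE factors were all detected. By the first quantification Tfec was at 38.4 and 40.9 TPM, Tfe3 at 45.2 and 31.7, Mitf at 30.9 and 21.6, and Tfeb lowest at 26.4 and 12.7. That order did not hold in the second quantification, where Tfeb was at 37.4 and 21.7 TPM, Tfe3 at 18.3 and 22.2, Mitf at 19.3 and 24.9, and Tfec at 17.5 and 32.8, so the factors are not ranked here.

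The word that these factors are known to bind was looked for in the promoters of the 38 genes. RefSeq promoters of GRCm38.p6, from 250 bases before to 50 after each start site, were at hand for 32 of the 38 genes, and Asah1, Atp6v0d2, Atp6v1h, Ctsb, Ctsh and Npc1 had no entry. TCACGTG, read on either strand, was found for 8 of the 32 genes (25%) and for 4.29% of all 27025 genes in the table. The 8 genes were Ctsa, Ctsd, Gaa, Gla, Glb1, Lamp1, Lgmn and Mcoln1. Its 6-base core CACGTG, which the longer word contains, was found for 9 of 32 (28.1%) against 8.09% of all genes, and the palindrome TCACGTGA for 4 of 32 (12.5%) against 1.12%. TCACGTG was absent in this window from Atp6ap1 and Atp6v0c, the only V-ATPase genes with an entry. It was also absent from the lipid handling genes other than Asah1 and Npc1, which had no entry. With so few genes, no difference between classes can be read from this. A match says that the letters are there and shows no binding.

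Each of the 4 genes has a palindrome upstream of a start site. Ctsa has a further one, not printed, that begins 4 bases after a start site. The upstream ones are printed in capitals, read in the direction of the gene, because palindromes are the longest matches among the 38 genes.
Ctsa chr2:164833743-164833772: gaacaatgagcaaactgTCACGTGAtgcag
Ctsd chr7:142387908-142387937: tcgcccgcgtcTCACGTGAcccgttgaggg
Gla chrX:134601215-134601244: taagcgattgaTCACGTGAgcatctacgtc
Gla chrX:134601182-134601211: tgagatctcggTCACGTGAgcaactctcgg
Mcoln1 chr8:3500462-3500491: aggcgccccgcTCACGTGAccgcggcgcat
The printed palindromes begin 13 bases before 1 of the start sites of Ctsa. Before the start sites of the others they begin 99 bases in Ctsd, 228 and 195 in Gla, and 46 in Mcoln1. The other genes carry 1 or 2 copies of the 7-base word, whereas Lamp1 carries 4, shown in the 66 bases before its start site.
Lamp1 chr8:13159095-13159160: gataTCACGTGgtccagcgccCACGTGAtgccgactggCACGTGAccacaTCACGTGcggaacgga
Levels did not separate by the word. The 8 genes with it had a median of 212 TPM, from 25.8 to 1795, and the 24 genes whose promoter lacked it had a median of 217 TPM, from 1.69 to 4229.

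Nuclear RNA holds unfinished and unspliced transcripts, and the annotation names some transcripts of a gene as coding and others as retaining an intron or as targets of nonsense-mediated decay, the pathway that destroys RNAs with an early stop. The 38 genes have 202 annotated transcripts, 24 of the genes have at least 1 retained-intron transcript, and Ctsk, Ctsz, Hexa and Lyz2 have a single transcript. Coding transcripts took a median of 89.1% ± 1.26 of a gene's TPM (SD, n = 2), against 70.5% over 10271 nuclear protein-coding genes with a mean of 1 TPM or more. Retained-intron transcripts took a median of 21.1% ± 3.29 over the 24 genes, against 32.2% over 6420 genes that have such a transcript. In counts, which are not divided by length, their median share was lower, at 9.10% over the 24 genes and 19.4% over the 6420. Summed over the 38 genes, retained-intron transcripts held 5.41% and 4.83% of counts. By first-quantification TPM, the most abundant transcript was not annotated as coding in both libraries for 2 of 38 genes, Neu1 and Ctsh. The share over the 10271 genes was 13.1%.

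**Figure D3:**
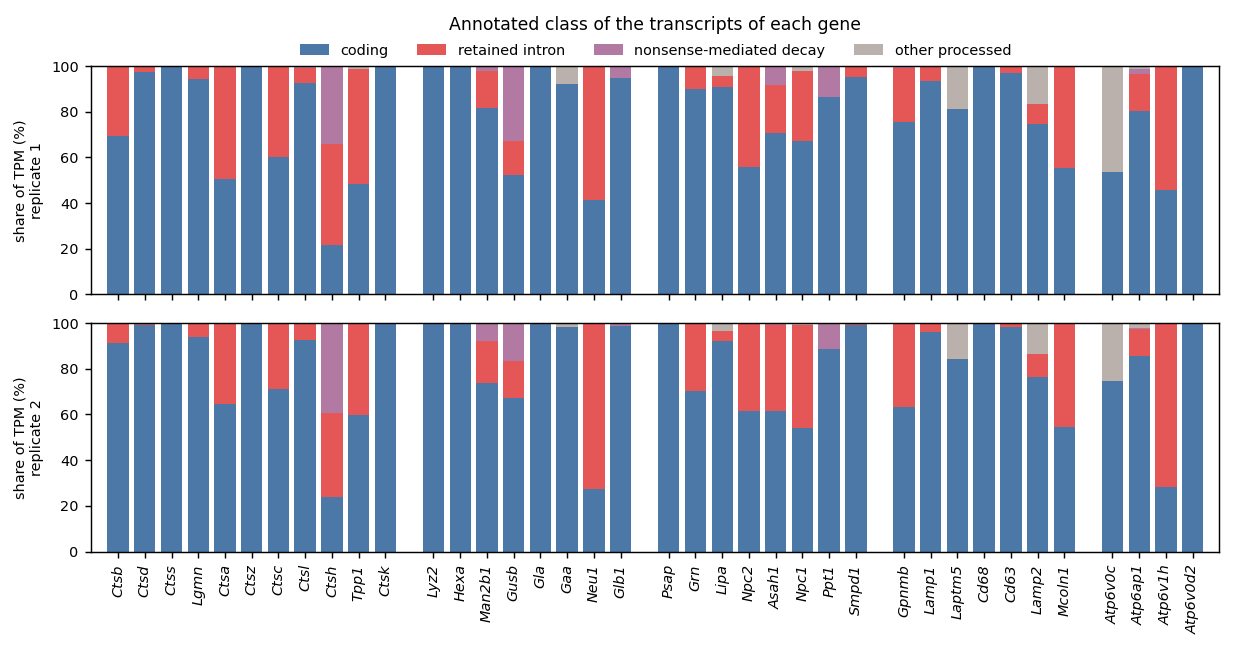
Share of each lysosomal gene's TPM, in percent, on coding, retained-intron, nonsense-mediated decay and other processed transcripts, as stacked bars from 0 to 100, with replicate 1 above and replicate 2 below. Neu1, Atp6v1h and Ctsh have the smallest coding shares, under 50% in both libraries. The coding share of Psap, Lyz2 and Hexa is 100% by annotation, as they have coding transcripts only.

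By TPM, Neu1 had the largest retained-intron share of the 38 genes, 58.7% in replicate 1 and 72.7% in replicate 2. By counts Atp6v1h was larger, at 72.3% and 85.0%, against 66.9% and 80.0% for Neu1. Nearly all of it was a single transcript, Neu1-202, with 55.3% and 72.7% of the gene's TPM by the first quantification and 57.4% and 70.4% by the second. Neu1-202 keeps the third of 5 introns and no other, a stretch of 1174 bases at chr17:34932829-34934002 on the plus strand. Tpp1-206 keeps the third of 12 introns, 1259 bases at chr7:105750331-105751589 on the minus strand, and held 28.2% and 24.5% of the TPM of Tpp1. Atp6v1h-206 keeps the fourth of 13 introns, 2162 bases at chr1:5093453-5095614 on the plus strand, and held 18.3% and 37.3% of the TPM of Atp6v1h. Reads within these introns were not examined, so kept introns and transcripts not yet spliced were not told apart. The bases around both intron ends, between coding exons, are shown to mark which introns these annotated transcripts contain. The first and last 2 intron bases are in capitals.
Neu1 intron start: tcaggcattcagGTttcaccctgtggatag
Neu1 intron end: acttcctcttcttaacAGaaacagcgggag
Tpp1 intron start: ctcctcaatatgGTgcctatcagttggggc
Tpp1 intron end: tcttctgaatccctgcAGgaaagtacctaa
Atp6v1h intron start: gatatgctgcagGTgagtgtgatatactaa
Atp6v1h intron end: tgcttggttttcttttAGgaaaatcaccag
All 3 introns begin with GT and end with AG. The whole-gene share of retained-intron transcripts was 54.4% and 71.9% for Atp6v1h and 50.5% and 39.4% for Tpp1.

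Retained-intron shares of TPM were also large for Mcoln1, at 44.6% and 45.5%, Ctsa, at 49.3% and 35.1%, Npc2, at 44.1% and 38.6%, Ctsh, at 44.2% and 36.8%, and Npc1, at 30.7% and 45.3%. As shares of counts they were far smaller for Ctsa, at 14.0% and 11.5%, and for Npc1, at 15.9% and 26.7%. In Mcoln1 the coding transcript Mcoln1-201 led in replicate 1, with 43.4% against 28.5% for the retained-intron transcript Mcoln1-205, and the order was turned in replicate 2, with 30.8% and 34.9%. In Atp6v1h, likewise, the coding Atp6v1h-201 led in replicate 1 and Atp6v1h-206 in replicate 2, by TPM of the first quantification only. By counts the retained-intron Atp6v1h-206 led in both libraries, with 37.1% and 58.7%. In replicate 1 of the second quantification the retained-intron Atp6v1h-208 led, with 19.0% against 18.3% for Atp6v1h-201. Ctsh was led by Ctsh-202, annotated as a target of nonsense-mediated decay, with 34.1% and 39.2% of TPM, against 21.7% and 24.0% for the coding Ctsh-201. In the second quantification Ctsh-202 held 20.7% and 17.8% against 15.7% and 23.8% for Ctsh-201, so Ctsh-201 led in replicate 2. By counts the retained-intron Ctsh-203 led in replicate 2, with 35.6% against 31.4% for Ctsh-202. Gusb carried 32.9% and 16.5% on its decay transcript Gusb-206. For Ctsb the retained-intron share was 30.5% in replicate 1 and 8.82% in replicate 2. Its short transcript Ctsb-202 stood at 398 and 16.2 TPM by the first quantification and at 407 and 235 by the second, so the size of that difference depended on the quantification. Between the libraries the retained-intron share was higher in replicate 2 for 12 of the 24 genes and lower for 12. Over the 6420 genes with such a transcript its median was 31.8% and 32.6%, and their split by direction was not counted.

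The spread between the libraries was then set against counting error, on expected counts scaled by TMM, which equalises most genes. The log2 ratio of replicate 2 over replicate 1 had a median of 0.13 over the 38 genes and 0.00 over the 15558 genes whose scaled counts averaged 10 or more. By this scale 24 of the genes were higher in replicate 2, yet by TPM 27 were lower there, with a median log2 ratio of -0.19 against -0.35 over the same 15558 genes. The 95% counting interval lay above 0 for 22 of the 38 genes, against 24.5% of all genes, and below 0 for 13, against 25.6%. The deep counts of these genes make such intervals narrow: their median absolute log2 ratio was 0.23, against 0.31 for all genes and 0.21 for 3044 genes whose scaled counts averaged 1000 or more, a level that 36 of the 38 genes had. More than 2-fold higher in replicate 2, with an interval clear of 0, were 0 of 38 genes against 4.36% of all genes. More than 2-fold lower was 1 of 38, against 3.66%.

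**Figure D4:**
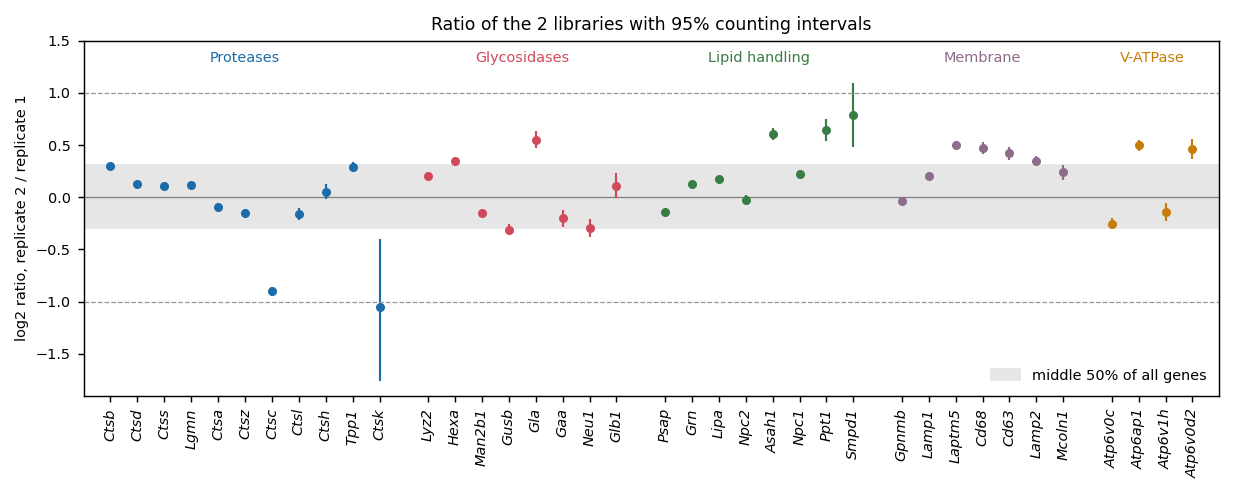
Log2 ratio of replicate 2 over replicate 1 for each lysosomal gene, with 95% exact binomial counting intervals as bars and dashed lines at 2-fold. The grey band holds the middle 50% of all 15558 genes, from -0.30 to 0.31. Ctsk and Ctsc lie lowest and Smpd1 highest.

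The gene past 2-fold was Ctsk, at -1.05 (95% counting interval -1.76 to -0.40), which rests on 61 and 28 counts. Ctsc lay just inside, at -0.90 (-0.94 to -0.86), from 14237 and 7316 counts. By the second quantification the call passed from Ctsk to Ctsc: Ctsc was at -1.04 (-1.074 to -1.005), from 18485 and 10748 counts, and Ctsk at -0.72 (-1.14 to -0.30), from 117 and 85 counts. A long noncoding gene on the opposite strand, Gm26522, overlaps Ctsc over 4743 bases and had 3489 and 2783 counts. Whether reads were assigned by strand is not stated, and the part of Gm26522 in the counts of Ctsc was not tested. The highest ratios were those of Smpd1, at 0.79 (0.49 to 1.10), Ppt1, at 0.64 (0.54 to 0.75), Asah1, at 0.61 (0.55 to 0.66), and Gla, at 0.55 (0.47 to 0.63). By class the median ratio was 0.35 for membrane proteins, 0.19 for lipid handling, 0.16 for the V-ATPase, 0.05 for proteases and -0.02 for glycosidases. Higher in replicate 2 were 6 of 7 membrane proteins, with Laptm5 at 0.50 and Gpnmb, the exception, at -0.03, and by TPM 5 of the 7 were higher there. The 3044 genes whose scaled counts averaged 1000 or more had a median ratio of -0.06. How many of all genes were higher in replicate 2, without regard to counting error, was not counted. Across the 38 genes the ratio and the GC content of the most abundant coding transcript had a Pearson correlation of -0.05. Over 11714 nuclear protein-coding genes it was -0.31. The Spearman rank correlations were -0.18 and -0.37. All are given as a description of genes that share these 2 libraries.

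Several of the 38 genes overlap others. Gm49369, a protein-coding gene on the same strand as Ctsd, shares 6757 bases with it and had 4316 and 17104 counts, while Ctsd had 65780 and 68917. Gm49369 was thus much higher in replicate 2 while Ctsd differed little, and its part in the level of Ctsd was not tested. Glb1 shares 6172 bases on its own strand with Tmppe, which had 391 and 343 counts against 1171 and 1214 for Glb1. Ctsa overlaps Pltp on the opposite strand over 1515 bases, with 6295 and 5028 counts for Pltp. Levels of these genes depend on how reads in the overlaps were assigned.

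Each library was quantified by 2 methods, 1 from alignments and 1 from the read files, per the accompanying notes. Centred on the median of all genes, the log2 ratio of the second quantification over the first had a median of -0.35 in replicate 1 and -0.36 in replicate 2 over the 38 genes, so that 32 and 33 of them stood lower in the second. The uncentred medians over all genes were -0.95 and -0.04. More than 2-fold apart in both libraries were 0 of 38 genes, against 4.60% of 9311 nuclear protein-coding genes. The 9311 genes had 1 TPM or more in both libraries and both quantifications. Ctsk, at 0.92 TPM in replicate 2 of the first, fell below that minimum but is counted among the 38. Farthest on the higher side were Ctsk, at 0.19 and 0.67, Ctsl, at 0.16 and 0.56, and Gla, at 0.47 and 0.17. Ctss was farthest on the lower side in replicate 1, at -0.62, and Cd63 in replicate 2, at -0.61.

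**Figure D5:**
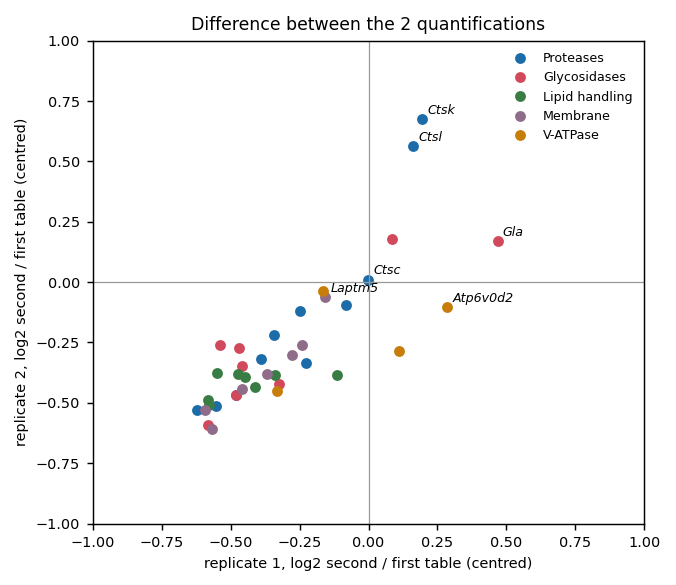
Log2 ratio of the second over the first quantification in TPM, centred on the median of all genes, with replicate 1 across and replicate 2 up, 1 point per lysosomal gene and colours by class. Most genes lie in the lower left, below 0 in both libraries, and none lies past 1 in either direction.

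The most abundant transcript differed between the quantifications, in at least 1 library, for 8 of the 38 genes, against 46.5% of the 10271 genes. For Atp6v0c it differed in both. The coding Atp6v0c-201 led the first quantification, with 53.0% and 73.7% of TPM, while the longer processed transcript Atp6v0c-205, annotated as noncoding, led the second with 49.97% and 61.8%. In Gla the full-length Gla-201 held 94.3% and 97.2% in the first, and in the second the 337-base Gla-202 held 51.3% and 38.6%. In Ctsd both leading transcripts were coding: Ctsd-202 held 57.3% and 38.3% and Ctsd-201 held 39.9% and 60.9% in the first, while Ctsd-202 led in the second, with 69.9% and 58.8%. In Ctsl the retained-intron Ctsl-202 held 6.30% and 7.35% in the first and 20.8% and 35.9% in the second. Ctsc, Ctsh, Gaa and Atp6v1h were the others, and in each the leading transcript differed in 1 library.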

How the data were processed

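For each library, the authors deposited 3 tables that draw on that library only. The first quantification, whose deposited columns are named as RSEM names them per the file headers, gives expected counts, TPM (also as a posterior mean) and FPKM, per gene and per transcript. The second, named as by kallisto per the file headers, gives deposited estimated counts and TPM for each transcript. Accompanying notes name mm10 and GENCODE M21. Programs, versions, filters and strand settings: not given in the sources used here.

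The 38 genes and all lists were chosen with earlier results of these data known. Named were the 3 highest and the lowest of each class and list, and every gene past 2-fold or with a noncoding or differing leading transcript; 2 further genes are not reported here. Entries without a gene, 0.823% and 0.207% of counts, were left out. Pip4p1 was also listed under its former symbol Tmem55b and entered a single time. Second-quantification transcripts were summed per gene. Expected counts were rounded and scaled by TMM (edgeR 4.0.16, R 4.3.3). Ratios used a prior count of 0.5 and exact binomial 95% intervals. With 1 group no test between groups was possible. Simulated data with known folds were used to test this step. Calculations ran in Python 3.11.15 with scipy 1.17.1, pandas 2.3.3 and numpy 2.4.6. Alternatives included DESeq2 1.42.0 size factors.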

Additional observations from a re-analysis of the deposited data

How the results depend on the processing

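No paired analysis was possible because there is 1 group. Median TPM of the 38 genes was 107 by the second quantification and 708 when TPM was rescaled over nuclear protein-coding genes. For proteases these medians were 189 and 1259, for glycosidases 56.1 and 371, for lipid handling 67.5 and 475, for membrane proteins 145 and 1024, and for the V-ATPase 59.3 and 413. As FPKM, lipid handling stood at 133, membrane proteins at 285 and the V-ATPase at 115, and the V-ATPase at 97.5 by posterior-mean TPM. Genes at 100 TPM or more in both libraries numbered 16 by the second quantification. The share of all genes at that level was not counted there, so this count stands without a background. The median log2 ratio was 0.0328 by library totals, 0.0679 by the second quantification and -0.19 by TPM, where its direction turned. Ctsk was no longer past 2-fold lower with a prior count of 5 or a mean scaled count of 100 or more (0 genes each), and TPM ratios gave 2 genes. By the second quantification the 1 gene past 2-fold lower was Ctsc, and Ctsk was not. Retained-intron shares had a median of 9.10% by counts, 27.1% by the second quantification and 24.97% from a mean of 10 TPM, and coding shares 93.4%, 75.4% and 85.5%. Over all nuclear protein-coding genes under the same conditions, the retained-intron median was 19.4% by counts and 36.4% by the second quantification. Their coding medians were 87.0% and 58.9%. From single libraries, the median TPM ranged from 158 to 195 for all 38 genes, 243 to 399 for proteases, 75.1 to 113 for glycosidases, 112 to 122 for lipid handling, 241 to 259 for membrane proteins and 100.2 to 103 for the V-ATPase. The retained-intron share ranged from 18.8% to 23.5% and the coding share from 88.2% to 89.995%. Other settings stayed within the spread or within 1.5 times the count. With 2 libraries, a spread is an estimate of low precision, and genes near 1 TPM, such as Ctsk, are limited by depth.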
